A study of Rattus norvegicus with 18 samples.

Results

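Most of the bacterial sequence features counted in these rats were met in 1 library and in no other. The single-library features described here are the rows of the count table with a count above 0 in exactly 1 of the 18 libraries. They number 7348 of 8405 features, or 87.4%, and hold 57569 of 594034 counts, or 9.69%. They were chosen by the presence or absence of counts over the 18 libraries, so their number, their restriction to 1 library and the counts that follow from it are given as a description. The choice reads no group label, which leaves the groups free to be compared over libraries.

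Intestinal contents of wild-type rats, called stool in other labels, were profiled by amplifying and sequencing variable regions of the 16S rRNA gene. The 6 control rats were untreated, the 6 model rats had induced radiation enteritis, and the 6 TG rats received a therapeutic intervention that the group label calls TCM treatment. The sources used here do not state the radiation dose, the agent given or its dose, the time points, age or strain, nor for each rat whether TG rats were irradiated. All 18 libraries carry the same batch label, and no animal is named per library, so the p-values measure the spread between these libraries.

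A gut community usually holds a few abundant lineages and a long tail of scarce ones. In 16S profiling each sequence feature stands for a distinct read sequence or a cluster of close ones, and an organism with several differing gene copies can yield more than 1 feature. A scarce feature can be a resident lineage near the limit of sampling, a transient from food or bedding, a variant of an abundant gene, or a product of amplification and sequencing errors. Richness counts each feature alike, while the Shannon index and Bray-Curtis distance weigh features by abundance. The features carry identifiers only, with 0 of them found in the deposited taxonomy table, so no organism is named and no sequence was at hand to print.

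Library totals were 33076 to 40192 counts in control, 30958 to 33342 in model and 23894 to 40575 in TG. A feature with 0 counts in a library could still make up to 0.0126% of the shallowest library and 0.00739% of the deepest. These limits, taken at 3 counts, and the intervals given below reflect counting error alone, since copies made by amplification are not separate molecules. TG 5, model 1 and model 3 stood apart with 276, 278 and 198 features against 446 to 1078 in the other libraries. TG 5 was at the same time the deepest of all 18 libraries.

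**Figure D1:**
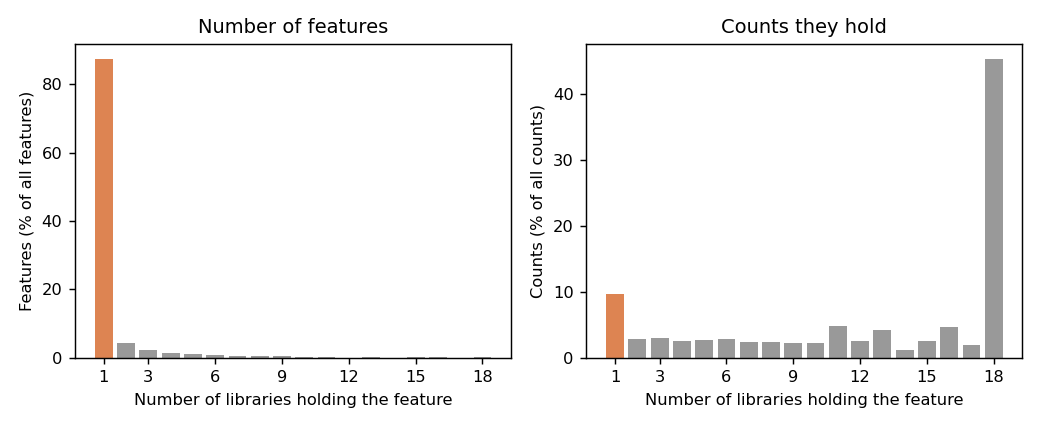
Percent of the 8405 features (left) and percent of all counts (right) by the number of libraries that hold a feature, with single-library features in orange. The single-library bar holds 87.4% of features and 9.69% of counts, while the features of all 18 libraries hold 45.4% of counts.

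The number of features fell steeply just beyond a single library. Exactly 2 libraries held 352 features, 3 libraries held 200 and all 18 held 19. The typical abundance moved the other way. A single-library feature had a median of 4 counts in all, a feature of 2 libraries a median of 38 and a feature of 3 libraries a median of 76.5. Features of all 18 libraries had a median of 9833 counts and held 45.4% of the data. Among features in 2 libraries, the median of the higher count was 24 and that of the lower count was 12. The lower count was 1 to 3 in 28 of the 352, so only 7.95% of those features sat within a few reads of falling under the rule. Both libraries belonged to the same group for 146 of them (41.5%), 63 in control, 27 in model and 56 in TG. A further 106 were split between TG and model, 52 between model and control and 48 between TG and control. The share that random pairing would give was not computed, so these numbers are a description only.

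Nearly all features limited to a group were features limited to a library. A single-library feature is limited to a group by definition, and such features were 87.4% of all features, so high shares follow from the rule. Control held 2176 features seen in no other group, of which 2085, or 95.8%, came from a single control library. In model these numbers were 2229 of 2260 (98.6%), and in TG 3034 of 3116 (97.4%). Features confined to a group but found in 2 or more of its libraries were 91 in control, 31 in model and 82 in TG. By counts they weighed more, with 7614 in control, 1546 in model and 5129 in TG. The single-library features of these groups held 18338, 16325 and 22906 counts.

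Low abundance was the rule among single-library features, with a limited set of exceptions. A single count was found for 428 of them (5.82%), 2 counts for 1311 (17.8%) and 3 counts for 1691 (23.0%), the most frequent value. A further 974 had 4 counts and 1430 had 5 to 9. The pooled spectrum therefore did not decline from 1 count upward but rose to a peak at 3. By library, the number fell from 2 to 3 counts in control 1 (68 and 50) and control 4 (46 and 34), and rose in the others. All 18 libraries had fewer features at 1 count than at 2, from 1 against 10 in TG 5 to 40 against 107 in TG 3. At least 10 counts were reached by 1514 single-library features, 20.6% of them, and these held 63.4% of the counts of the whole set. At least 50 were reached by 117, and at least 100 by 8.

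**Figure D2:**
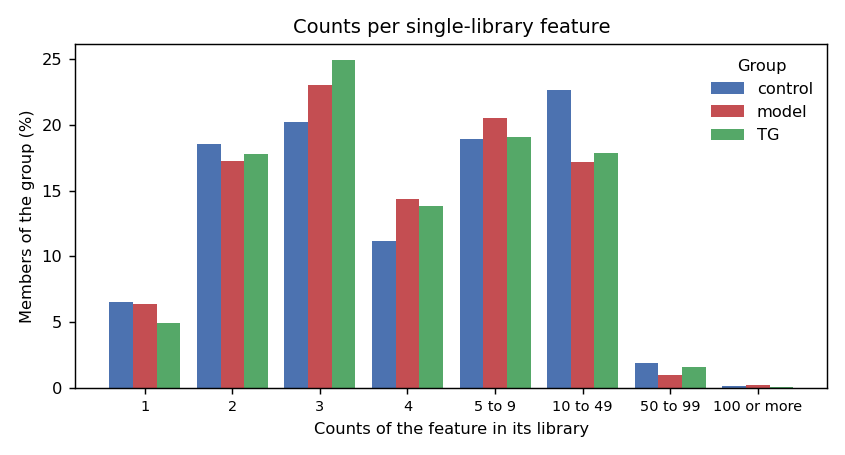
Percent of each group's single-library features by their count in the library that holds them (2085 features in control, 2229 in model, 3034 in TG). In each group the bar at 3 counts exceeds those at 1 and 2, and few features reach 50 counts.

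The median was 4 counts in control, model and TG, while the pooled means were 8.80, 7.32 and 7.55 counts and 24.7%, 18.4% and 19.4% of the group's single-library features had 10 or more. These spectra were not tested against each other. They are counts as deposited, from libraries of unequal depth, with mean totals of 37208 in control, 32293 in model and 29504 in TG. Counts per feature scale with depth, so the groups are not set level here. By library, the share of single-library features with 10 or more counts ran from 14.8% over a median of 26.8% to 30.7% in control. It ran from 11.7% over 17.95% to 21.5% in model and from 15.7% over 19.9% to 31.4% in TG. The ranges of the groups overlap, and model 3 and TG 5, the deepest library, mark the lowest and the highest of the 18 libraries.

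The most abundant single-library feature, b03e80cd5eddcf52e08a40c702766be0, had 185 counts in control 1 and 0 in each of the other 17 libraries. It made 0.515% of that library (exact Clopper-Pearson 95% interval 0.444% to 0.595%), stood at rank 25 there and at rank 285 among all features. At that share, 123 to 209 counts would have been met in each other library. The next, 36a655c40dba88d54f4db1670991f3b2, had 150 counts in TG 2, or 0.628% (interval 0.532% to 0.736%), at rank 23 of that library and rank 368 overall. Both were thus rare by the number of libraries that held them, but not by their counts. The leading single-library feature of each other library had 20 to 131 counts and an overall rank between 415 and 1627. The lowest of these leaders belonged to model 3, with 0.0600% of its counts, and the highest to model 5, with 0.410%.

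Within their libraries, some single-library features reached the upper ranks, but far fewer than their share of all features. Of the 100 highest features of a library, 3 to 15 (median 10.5) were single-library features in control, 0 to 12 (median 7.5) in model and 1 to 12 (median 5) in TG. Of all features of a library they made 49.5% to 65.2% in control, 38.9% to 61.9% in model and 42.8% to 66.3% in TG. The first 100 are a larger part of a small library such as model 3, with 198 features, so these ranges are not level between libraries. Over the pooled table none was among the 100 most abundant features, 7 were among the first 500 and 178 among the first 1000. The label of a rare tail therefore fits most of the set in the pooled table, while in individual libraries the set mixes traces with features of moderate rank. None could pass a filter of 10 counts in 4 libraries, since each has counts in 1 library only, so no feature-by-feature test between groups was made.

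Entries of few counts belonged mostly to single-library features, and entries of many counts mostly to the others. Of all entries above 0, 59.3% belonged to single-library features (59.2% in control, 57.5% in model and 60.8% in TG). A feature of few counts meets the rule more easily, so part of this difference follows from the choice. Of the 12389 entries above 0 in the table, 3547 were of 1 to 3 counts, and 3430 of those (96.7%) belonged to single-library features. The share was 96.3% in control, 96.8% in model and 96.9% in TG. It fell to 70.9% at 6 to 9 counts, 47.2% at 10 to 19, 23.5% at 20 to 49, 11.3% at 50 to 99 and 2.48% from 100 to below 200, and to 0 of 461 entries at 200 or more. Features of 2 or more libraries rarely appeared as traces, with 117 of their 5041 entries (2.32%) at 1 to 3 counts and a median of 32 counts. Among features with a total of 10 or more counts, 59.4% were still confined to a library, so their predominance did not rest on traces alone.

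Zeros elsewhere were fixed by the choice of the features, so what depth could have shown is given as arithmetic only. If each single-library feature had the same share in the other libraries as in its own, 3581 of them (48.7%) would exceed 3 counts in each of the other 17. These held 83.2% of the counts of the set. For 2191 (29.8%) this was so in some of the other libraries, and for 1576 (21.4%) in none, so for the latter a like share elsewhere could have gone unseen at this depth. A share taken from as few as 3 counts is itself imprecise. The share above the limit in all other libraries was 42.5% in control, 43.3% in model and 57.0% in TG, whose libraries were mostly shallower.

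As deposited, libraries held 252 to 463 single-library features in control (median 334), 77 to 586 in model (median 450) and 118 to 677 in TG (median 550). They made 58.7% ± 5.36 of the features of a control library, 54.9% ± 8.23 of a model library and 58.6% ± 8.59 of a TG library (SD, n = 6 each). Their share of a library's counts was 4.57% to 10.6% in control (median 8.92%), 1.13% to 13.0% in model (median 10.3%) and 3.09% to 22.7% in TG (median 14.4%). The lowest share, in model 3, had an exact 95% interval of 1.02% to 1.25%, and the highest, in TG 2, one of 22.2% to 23.3%.

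To set the groups side by side at equal depth, each library was reduced to 23894 counts, the lowest total, and the rule was applied again to the reduced table, using exact expected values. Per library there were then 328 ± 82.3 single-library features in control, 360 ± 201 in model and 499 ± 199.7 in TG (SD, n = 6 each). Control libraries ran from 234 over a median of 314 to 432, model libraries from 74.6 over 435 to 571 and TG libraries from 114 over 538 to 668. TG had 172 more than control, with 5 of 6 TG libraries above the highest control library and TG 5 below the lowest. That difference was not past the threshold of 0.05 (exact two-sided permutation p = 0.0844, adjusted p = 0.253 over the 9 tests made). It passed without TG 5, at 249.9 (exact permutation p = 0.00216, the lowest this design can give, and adjusted p = 0.00649). TG 5 was the lowest TG library in this same measure, and the other 5 lay above all control libraries. Leaving it out therefore puts that p-value at its minimum, so it is not support for a difference. Each of the 18 libraries was left out in turn, while the adjustment covers 9 tests only. The excess was smaller once features of few counts were set aside. Where entries under 5 counts were set to 0 it was 45.4, and where those under 10 were set to 0 it was 16.3 (adjusted p = 0.385 and 0.504 by the same exact permutation test). These minimums were applied before the reduction, so the same count was a larger share of a shallower library. The TG excess over control in share of counts fell less, from 5.70 percentage points to 4.38 and 3.73 under these minimums. Neither was past the threshold (adjusted p = 0.370 and 0.365 by the exact permutation test). As deposited, single-library features of 10 or more counts numbered 85.7 ± 25.6 per library in control, 68.3 ± 39.9 in model and 98.3 ± 33.5 in TG (SD, n = 6 each).

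**Figure D3:**
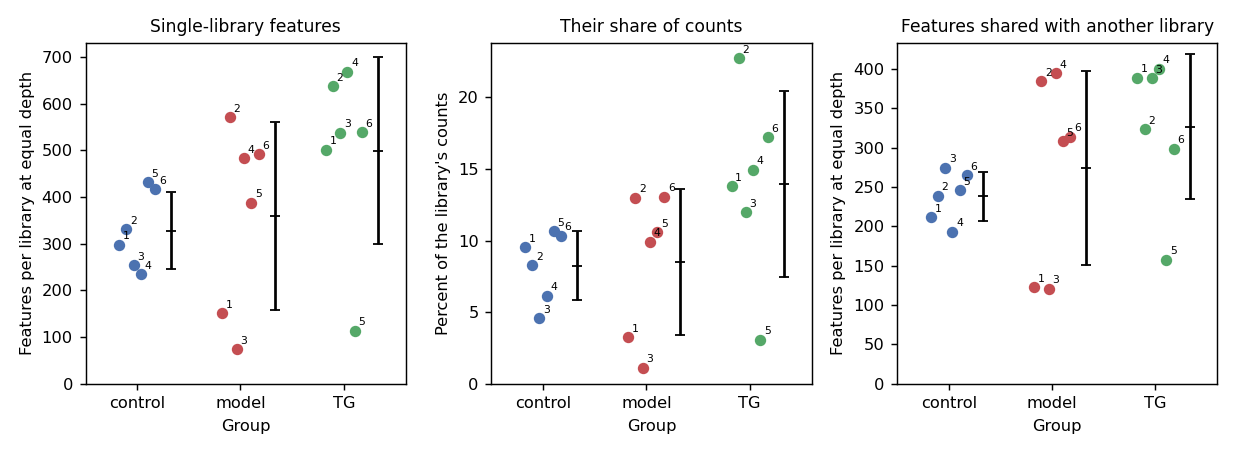
Expected values per library after reduction to 23894 counts, with points numbered by replicate and bars giving the mean and SD of 6 libraries: single-library features (left), their percent of counts (middle) and features shared with another library (right). TG 5, model 1 and model 3 lie lowest in the left and right panels, and the other 5 TG libraries lie above the control libraries in each panel.

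TG and model differed by 140 single-library features per library, with 2 of 6 TG libraries above the highest model library (exact permutation p = 0.223, adjusted p = 0.401). Model and control differed by 32.0, with 3 model libraries above and 2 below the whole control range (exact permutation p = 0.727, adjusted p = 0.818). That difference was 89.1 without model 3, 73.8 without model 1 and 4.23 to 15.9 without control 3, control 4, model 4 or model 6; it was 48.7 and 48.4 without control 5 and control 6. Without model 2 it turned to -9.25, and with entries under 5 or under 10 counts set to 0 it was -5.29 or -17.8. The TG excess over model was 50.7 and 34.2 in those settings, 82.3 without model 3 and 217 without TG 5. The model libraries thus lay on both sides of the control libraries.

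The share of counts in single-library features followed the same order of means. At equal depth it was 8.25% ± 2.43 in control, 8.49% ± 5.08 in model and 14.0% ± 6.49 in TG (SD, n = 6 each). TG exceeded control by 5.70 percentage points, with 5 of 6 TG libraries above the highest control library, which was not past the threshold (adjusted p = 0.253, exact permutation p = 0.0693). TG exceeded model by 5.47 points, with 4 of 6 TG libraries above the highest model library (exact permutation p = 0.128, adjusted p = 0.287). Both passed without TG 5, at 7.99 points (adjusted p = 0.00649) and 7.71 points (adjusted p = 0.0390) by the exact permutation test. TG 5 had the lowest share of the TG libraries, so the tested values single out the library left out. Both passes are therefore a description and not support for a difference. Model and control differed by 0.236 points (exact permutation p = 0.916, adjusted p = 0.916), a value that changed sign without control 3, control 4, model 2, model 5 or model 6, and with either count minimum.

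Evenness was expressed as the Shannon evenness of the numbers, which is 1 where each group or library holds the same number. Over the 3 groups it was 0.984 at equal depth, with 27.6% of single-library features in control, 30.3% in model and 42.1% in TG. As deposited it was 0.987, with 28.4%, 30.3% and 41.3%, so the reduction to equal depth widened the gap between TG and control. Among the 6 libraries of a group the evenness was 0.985 in control, 0.912 in model and 0.951 in TG. The fullest library held 1.84 times the number of the emptiest in control, 7.65 times in model and 5.88 times in TG. By share of counts the evenness over groups was 0.971, with 26.9% in control, 27.7% in model and 45.5% in TG.

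Features shared with another library gave a comparison for the same libraries. At equal depth they numbered 238 ± 31.1 in control, 274 ± 123 in model and 326 ± 92.1 in TG (SD, n = 6 each). TG exceeded control by 88.1 (exact permutation p = 0.0563, adjusted p = 0.253), and by 121 without TG 5 (exact permutation p = 0.00216, adjusted p = 0.00649). Here too TG 5 was the lowest TG library, so the result without it is a description only. TG exceeded model by 52.2 (exact permutation p = 0.368, adjusted p = 0.552) and model exceeded control by 35.9 (exact permutation p = 0.511, adjusted p = 0.657). The former was 21.5, 21.9, 34.4 and 85.5 without model 1, model 3, TG 4 and TG 5, and the latter was 66.3, 12.9, 66.5 and 9.91 without model 1, 2, 3 and 4. The 3 libraries with the fewest shared features, model 3, model 1 and TG 5, were also the 3 with the fewest single-library features. In relation to all features of a library at equal depth, single-library features made 57.4% ± 5.48 in control, 54.2% ± 8.21 in model and 58.3% ± 8.85 in TG (SD, n = 6 each), levels that lie within each other's spread.

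**Figure D4:**
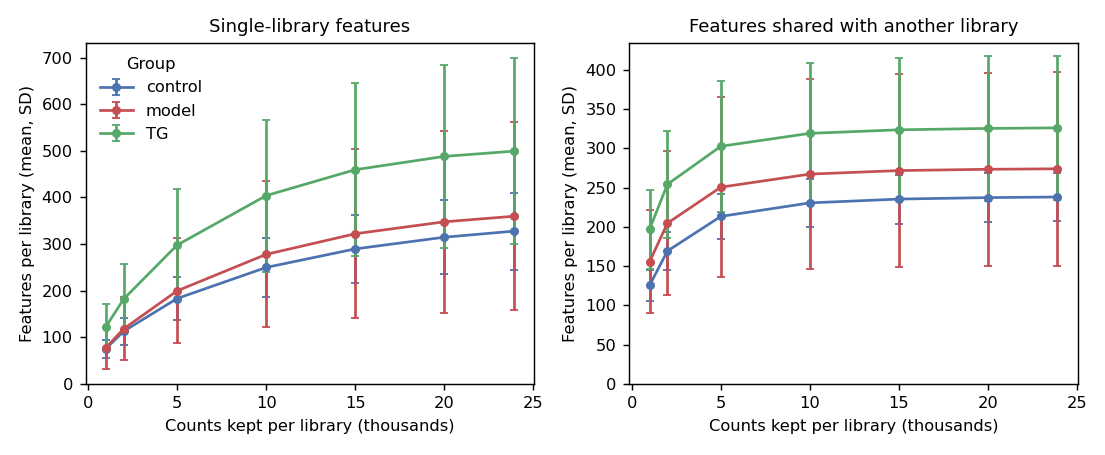
Mean and SD over the 6 libraries of each group of single-library features (left) and features shared with another library (right) against the counts kept per library. The left curves still rise at 23894 counts, and the right curves are nearly flat from 10000 counts on.

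Single-library features had not levelled off at the depth reached. From 20000 to 23894 counts their mean number rose by a further 4.12% in control, 3.43% in model and 2.30% in TG, against 0.314%, 0.218% and 0.220% for shared features. At 1000 counts per library they numbered 75.4 ± 19.6 in control, 77.7 ± 44.9 in model and 122 ± 49.6 in TG (SD, n = 6 each), and the order of the means was the same at each of the 7 depths computed. Their share of counts changed little beyond 5000 counts, from 8.46% to 8.25% in control, 8.68% to 8.49% in model and 14.4% to 14.0% in TG.

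The diversity readouts of the study depended on these features to different degrees, which is given here without a test. Removing them lowered the Shannon index (base 2) from 6.01 to 5.42 in control, from 6.77 to 6.27 in model and from 7.86 to 7.17 in TG. The decrease was 0.343 to 0.785 per library in control, 0.0973 to 0.771 in model and 0.206 to 0.945 in TG. The TG mean exceeded the model mean by 1.09 with all features and by 0.903 without them, and the model mean exceeded the control mean by 0.766 and 0.850. Mean Bray-Curtis distances between libraries of a group fell from 0.402 to 0.351 in control, from 0.612 to 0.569 in model and from 0.623 to 0.555 in TG. The share of squared distance that lay between the groups (R2) was higher without single-library features in each comparison. It went from 0.208 to 0.225 for model against control, from 0.145 to 0.159 for TG against model and from 0.401 to 0.459 for TG against control. Without model 5 the values for TG against model were 0.224 with all features and 0.257 without the single-library ones. By construction, a feature of a single library adds to its distance from every other library, in the same group or not.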

How the data were processed

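Counts per sequence feature were deposited by the authors as 1 table exported from a BIOM file, per the file headers. Denoising and clustering came before annotation per the labels of the series; the sources used here name no tool, setting, chimera removal or low-count filter, and these steps decide which scarce features exist. Assignment confidences, a fraction, were deposited with 10371 taxon names under other identifiers, of which 0 occur in the count table.

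Equal depth used the exact hypergeometric expectation at 23894 counts, tested on simulated data. A single-library feature at equal depth is one expected in its library and in none of the other 17. Groups of 6 were compared with exact two-sided permutation tests over 924 splits (smallest p 0.00216), with Benjamini-Hochberg adjustment over 9 tests (3 measures, 3 comparisons) and a threshold of 0.05. In the main tests the choice of features reads counts only, so permuting labels leaves library values as they are. With the rule judged within groups the values depend on the labels, so the permutation p-values of that alternative are not exact. Evenness is the Shannon entropy over its maximum. Ranks order features by total counts.

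By rule, the text names the 2 leading members by identifier and each library's leader by rank. Members, measures and lists were chosen with earlier results of these data known. Alternatives were other depths, count minimums of 5 and 10 (reduced to the lowest total then left), the rule before thinning or within groups, medians, a replicate block and leaving out each library. Versions were numpy 2.4.6, pandas 2.3.3, scipy 1.17.1, matplotlib 3.10.9 and Python 3.11.15.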

Additional observations from a re-analysis of the deposited data

Results flagged for a closer look

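TG 5 lay apart from the rest of its group in the number of single-library features. It held 118 as deposited and 114 at equal depth, against 502 to 677 and 501 to 668 in the other 5 TG libraries, and its gap to the next library exceeded Dixon's 95% limit in both cases. It was the deepest library, with 40575 counts, and also had the fewest shared features of its group, 157 at equal depth. Its single-library features had the highest median, 6 counts, of the 18 libraries. The part of depth or of library quality in this was not tested. Of 18 combinations of quantity and group examined, 2 exceeded the limit, both for this library, and chance gives about 1 in 20. The 18 hold each quantity both as deposited and at equal depth, and the 2 are the same quantity in these 2 forms. They are therefore not independent and amount to 1 observation.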

How the results depend on the processing

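Of 234 recomputed differences between groups, 220 kept their direction and their side of the threshold, 4 came to pass and 10 changed sign; 0 of the 9 had passed the exact permutation test to begin with, and 0 had an unadjusted p under 0.05. All 4 that came to pass were without TG 5: TG against control in number (249.9), share (7.99 points) and shared features (121), and TG against model in share (7.71 points). TG 5 was the lowest TG library in each of these measures, so these 4 are a description and not support for a difference. For model against control, the difference in single-library features was -5.29 with entries under 5 counts set to 0 and -17.8 with those under 10 set to 0, and the difference in their share of counts was -0.145 and -0.567 percentage points; the cause was not tested. With 1 library left out, the differences in number ranged from -9.25 to 89.1 for model against control, 82.3 to 217 for TG against model and 142 to 249.9 for TG against control. Those in share ranged from -0.842 to 1.71, 3.99 to 7.71 and 4.40 to 7.99 points; in sign they turned for model against control without control 3 (-0.533), control 4 (-0.431), model 2 (-0.544), model 5 (-0.186) and model 6 (-0.842). Those in shared features ranged from 9.91 to 66.5, 21.5 to 85.5 and 69.3 to 121. Under the other settings TG exceeded control by 16.3 to 224 single-library features. The whole table held 7348 single-library features, 2980 with entries under 5 set to 0 (74.7% of features left) and 1620 with those under 10 set to 0 (64.3%), with medians of 10 and 18 counts; without any 1 library it was 6714 to 7275. Same-numbered libraries did not deviate together (median correlation -0.0443, 0.0363 and -0.0730 over 431 features), and with the replicate block the difference of TG against control in number, 172, had an adjusted p of 0.422. A feature with 0 counts in a library could hold up to 0.0126% of the shallowest and 0.00739% of the deepest.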
